A study of Homo sapiens with 12 samples.

Results

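Unirradiated A549 cells with a stable knockdown of TRIM22 were compared with unirradiated A549 cells that carried a control hairpin. A549, an established human line derived from a lung adenocarcinoma (non-small cell lung cancer), is known for a defective KEAP1 and a deleted CDKN2A locus. Libraries were taken by their labels: 3 libraries of shTRIM22 cells after sham irradiation (shTRIM22 sham, genotype labelled TRIM22 knockdown) and 3 of shControl cells after sham irradiation (shControl sham, genotype labelled WT), 6 of the 12 libraries of the study. The other 6 libraries, shTRIM22 irradiated and shControl irradiated with 3 each, were taken 3 days after ionizing radiation, at a dose the labels do not give. They served to see whether the same differences stood in other libraries of cells with the same hairpin labels. The study asked how loss of TRIM22 alters gene expression in A549 cells and their response to radiation, and without radiation the question is what the hairpin changed by itself. The labels name shTRIM22 and shControl cells, called populations below, and give no hairpin sequence, number of hairpins or clone status. The loss of TRIM22 therefore cannot be told apart from anything else in which the populations differ. Libraries of 1 group are described as biological replicates with no word on whether these were separate cultures. Each p-value therefore measures the spread between libraries, estimated over all 12 of the study in 1 fit. "Knockdown" below means shTRIM22 set against shControl cells.

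TRIM22, a tripartite motif protein with a RING domain, acts as an E3 ubiquitin ligase. It is induced by interferons and by p53 and best known as a restriction factor against viruses. p53 is held low by the ubiquitin ligase MDM2 in unstressed cells. Once active it raises the genes of the cell cycle inhibitor p21 (CDKN1A), of MDM2 itself and of several death and repair proteins, while p21 acts on cyclin-dependent kinases, RB and E2F to lower genes of DNA replication and mitosis.

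Poly(A) RNA was counted per gene. Total counts per library ran from 15940088 to 17872154 in the 6 sham libraries, and levels are given as CPM, counts scaled to a common library size with TMM factors. Replicate 3 of shTRIM22 sham did not resemble the others of its group. Its mitochondrially encoded genes held 2.67% of counts, where they held 9.12% and 11.4% in the other shTRIM22 sham libraries, against 10.8% to 13.1% in shControl sham. Over 11348 genes its log2 levels differed from those of the other shTRIM22 sham libraries with an SD of 0.358 and 0.418, where the 10 other pairs of replicates in the study gave 0.161 to 0.201. The part of this library in the results was checked by repeating each of them without it, and values without it are given beside the gene groups and genes whose counts or folds it moved by more than 1.5 times.

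TRIM22 (ENSG00000132274, chromosome 11, 5689689 to 5737089, plus strand, GRCh38) was low in both populations and lower in the knockdown. It had 0.326, 0.304 and 0.293 CPM in the shTRIM22 sham libraries, from 6, 5 and 5 counts, against 2.83, 1.75 and 2.25 CPM in the shControl sham libraries, from 45, 28 and 40 counts. The groups did not overlap, and 13.5% of the shControl mean was left (log2 fold change -2.86 ± 0.32 SE, edgeR adjusted p = 1.92e-06). Without shTRIM22 sham replicate 3 the log2 fold change was -2.82, and in the irradiated libraries it was -3.14. Of 15 tested TRIM genes that neighbour or resemble TRIM22, 3 rose and 7, TRIM22 among them, fell. TRIM29 rose to 40.2, 43.5 and 44.6 CPM in shTRIM22 sham, against 25.0, 22.2 and 20.5 CPM in shControl sham. TRIM16 and TRIM47 fell, with log2 fold changes of -0.77 ± 0.09 and -0.78 ± 0.11 (SE), and 51.5% of the exon bases of TRIM47 are shared with an opposite-strand transcript that averaged 0.594 CPM. TRIM5, the antiviral factor next to TRIM22, had a log2 fold change of 0.04 ± 0.10 (adjusted p = 0.765, named after its value was seen).

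The populations differed in a large share of the genes tested. Of 17094 genes, 8116 passed the edgeR test at an adjusted p below 0.05, which is 47.5%, with 4342 higher (25.4%) and 3774 lower (22.1%) in shTRIM22 sham. At least 2-fold changes were fewer, with 791 genes higher (4.63%) and 1206 lower (7.06%), and they leaned towards falls. Each library is RNA of a whole culture, so a gene expressed in fewer cells and a gene expressed less in each cell cannot be told apart. Without shTRIM22 sham replicate 3, 8692 genes were called, and 7376 of the 8116 were among them with the same sign. Against this background, a group of genes is described below by how many of its tested members were called and by its median log2 fold change, where all genes tested had a median of 0.02.

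**Figure D1:**
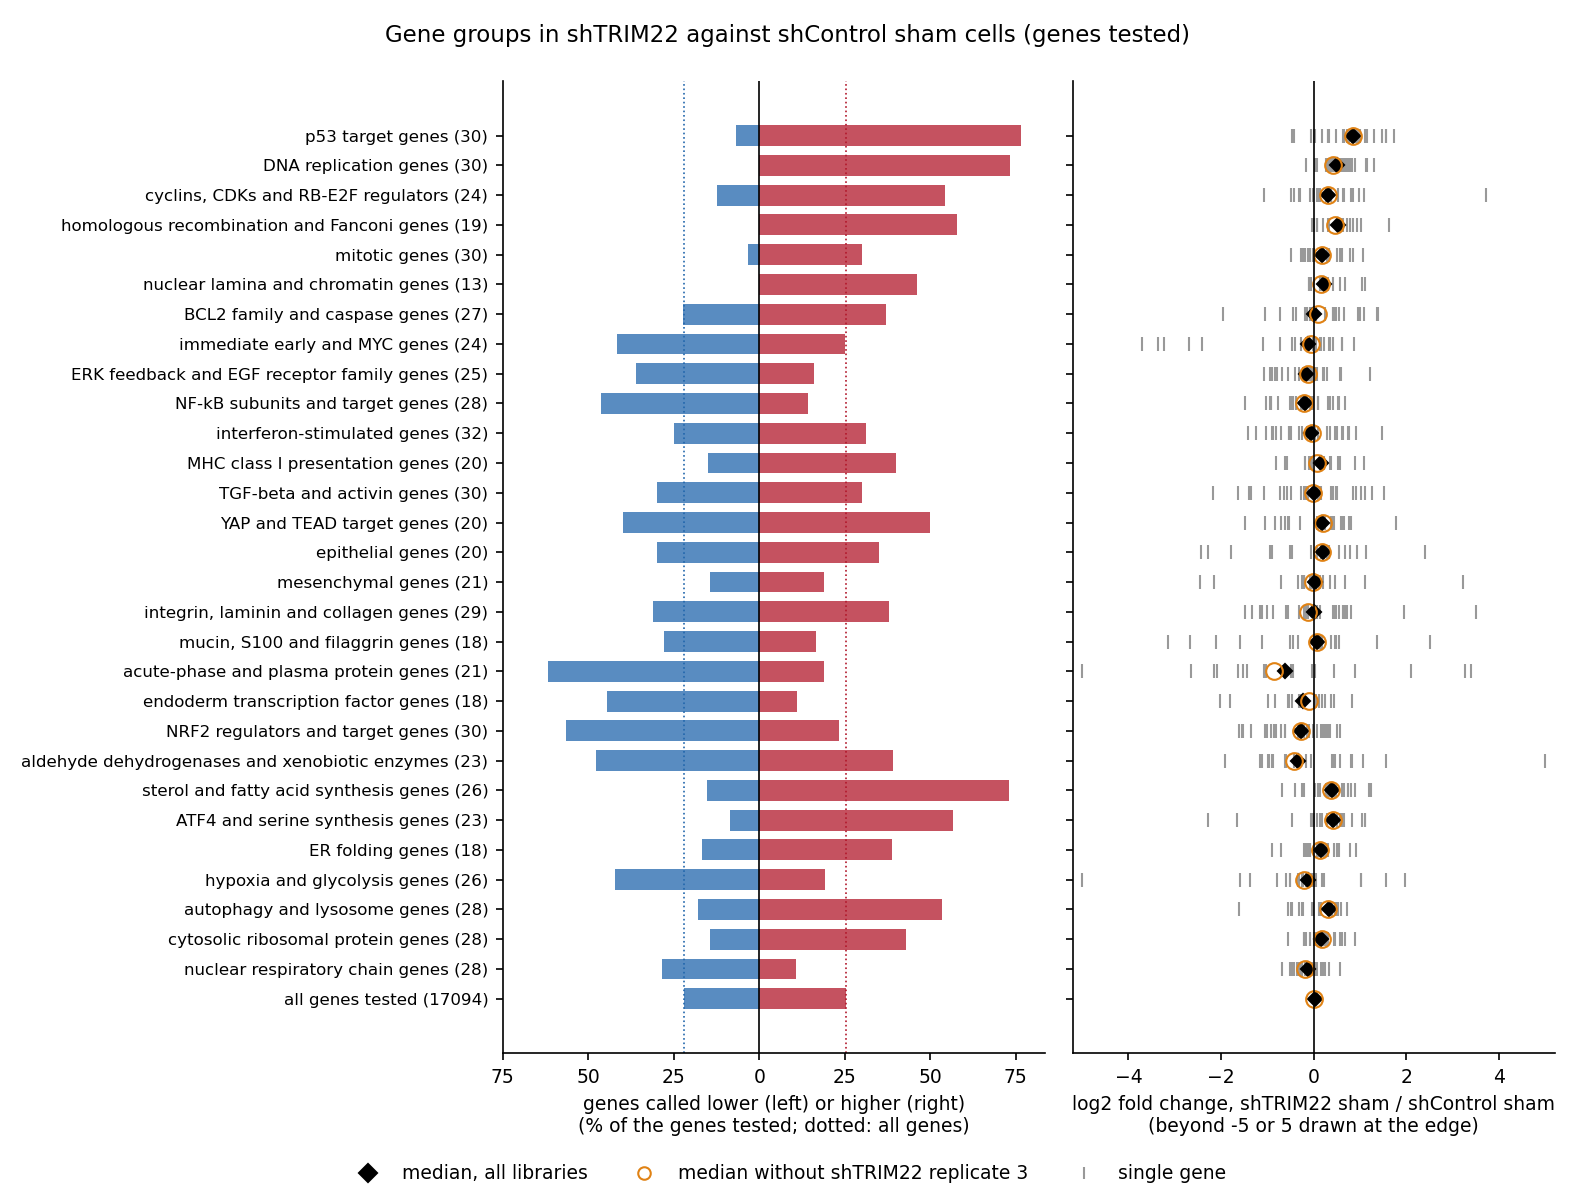
Left, the share of tested genes in each group called higher (red, right of 0) or lower (blue, left of 0) in shTRIM22 sham against shControl sham, with dotted lines at the shares over all genes (25.4% and 22.1%) and the number of genes tested in brackets. Right, the log2 fold change of each gene (grey ticks) and the group median with all libraries (black) and without shTRIM22 sham replicate 3 (orange rings), which lie close together in most groups.

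Targets of p53 were mostly higher in shTRIM22 cells. The list held 30 targets of p53, all tested, of which 23 rose and 2 fell with a median log2 fold change of 0.84, and without shTRIM22 sham replicate 3 the counts were 24 and 2 with a median of 0.85. Their summed level was 2768, 2694 and 2877 CPM in shTRIM22 sham, against 1648, 1637 and 1598 CPM in shControl sham. CDKN1A (ENSG00000124762, chromosome 6, 36676460 to 36687339, plus strand), the p21 gene, had 355, 365 and 365 CPM in shTRIM22 sham, against 162, 164 and 160.1 CPM in shControl sham. The libraries of each population were nearly alike and the groups far apart (1.16 ± 0.05, adjusted p = 6.67e-11). MDM2 stood at 163, 151 and 144 CPM in shTRIM22 sham, against 85.1, 85.9 and 85.5 CPM in shControl sham, 1.79-fold higher with no overlap.

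SESN1, a sestrin that restrains mTORC1, rose the most of the group, to 22.1, 19.6 and 23.4 CPM in shTRIM22 sham, against 6.22, 6.64 and 6.64 CPM in shControl sham (3.34-fold). ZMAT3, an RNA-binding zinc-finger protein, rose to 74.2, 75.9 and 63.5 CPM in shTRIM22 sham, against 26.3, 23.4 and 23.2 CPM in shControl sham. For some members the size depended on replicate 3. FDXR, the ferredoxin reductase, had 49.9, 44.5 and 104 CPM in shTRIM22 sham, against 21.9, 21.8 and 23.6 CPM in shControl sham, with replicate 3 far above the other knockdown libraries. Its fold was 2.95 with all libraries and 2.11 without that one, called in both. PHLDA3, an AKT inhibitor, showed the same order with 163, 139 and 246 CPM in shTRIM22 sham, against 70.7, 63.6 and 63.8 CPM in shControl sham. Death genes on the list rose too. The death receptor gene FAS had 23.8, 23.0 and 21.0 CPM in shTRIM22 sham, against 12.3, 9.40 and 9.68 CPM in shControl sham, the nuclease gene AEN had a log2 fold change of 1.30 ± 0.07 and the pore-forming BAX one of 0.72 ± 0.07. The members that fell were the damage-recognition gene XPC (-0.42 ± 0.10) and the ubiquitin ligase gene FBXW7 (-0.47 ± 0.13). FAS, AEN, BAX, XPC and FBXW7 were named after their values were seen, and 8.94% of the exon bases of FAS are shared with ACTA2 on the opposite strand.

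The rise of p53 targets was seen in sham cells and was much smaller in irradiated ones. In the irradiated libraries, 8 of the 30 targets were higher and 6 lower in shTRIM22 cells, with a median of 0.03, where 35.6% of all genes were called for knockdown. CDKN1A had 635, 650.3 and 647 CPM in shTRIM22 irradiated and 578, 603 and 617 CPM in shControl irradiated, both well above the sham libraries of either population. MDM2 had 245, 225 and 244 CPM in shTRIM22 irradiated, against 316, 317 and 296 CPM in shControl irradiated, so that its order was the opposite of that in sham cells. The difference between the knockdown effects passed the edgeR test for 20 of the 30 targets, where 276 of 17094 genes (1.61%) passed it. Leaving out each of the 6 sham libraries in turn gave 16 to 24 of the 30, while the count over all genes ran from 111 to 1185. Without shTRIM22 sham replicate 3 it was 24 of the 30, beside 1185 of 17500 genes (6.77%). For CDKN1A the difference of the log2 effects was 1.05 ± 0.07 (adjusted p = 1.22e-06) and for MDM2 it was 1.22 ± 0.09 (adjusted p = 1.22e-06).

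**Figure D2:**
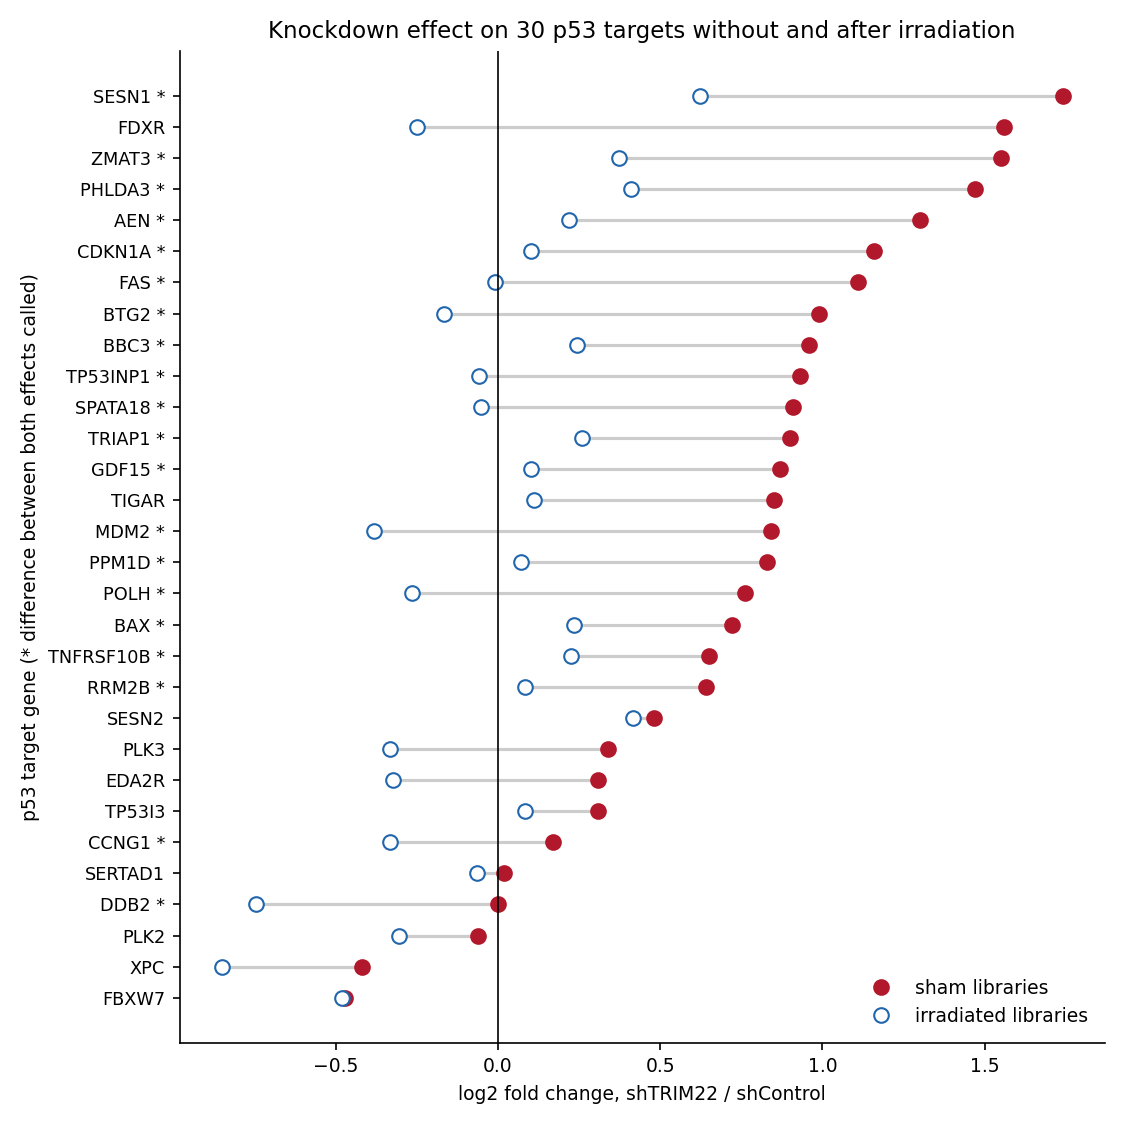
Log2 fold change of shTRIM22 against shControl for the 30 p53 target genes in sham libraries (red) and in irradiated libraries (open blue), 3 libraries in each group, with an asterisk where the difference between both effects passed the edgeR test. For most genes the red point lies well to the right of the open one, as for CDKN1A at 1.16 and 0.10.

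Genes of DNA replication were higher as well, beside the higher p21 mRNA. Of 30 tested, 22 rose and 0 fell, with a median log2 fold change of 0.51; without shTRIM22 sham replicate 3 the counts were 24 and 0 and the median was 0.42. No replication gene fell at an unadjusted p below 0.05 or by DESeq2 either, and the same holds, with all libraries, for the Fanconi and lamina genes below. MCM2, a subunit of the replicative helicase, had 58.3, 56.5 and 92.7 CPM in shTRIM22 sham, against 29.9, 29.6 and 25.0 CPM in shControl sham. Replicate 3 was the highest library, and the others were still clear of all control libraries (1.30 ± 0.18 with and 1.03 without it). GINS2, a subunit of the GINS complex in the same helicase, had 14.1, 13.2 and 14.9 CPM in shTRIM22 sham, against 6.67, 6.96 and 5.29 CPM in shControl sham. MCM10, which activates that helicase, rose with a log2 fold change of 1.12 ± 0.18. TYMS, the thymidylate synthase, had one of 0.88 ± 0.12, and 39.2% of its exon bases are shared with ENOSF1 on the opposite strand. PCNA, the sliding clamp, is both a replication gene and a p53 target, and it had 386, 354 and 438 CPM in shTRIM22 sham, against 371, 370.2 and 370.2 CPM in shControl sham with overlapping groups (adjusted p = 0.366, named after its value was seen).

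Promoter windows of replication genes, from 250 bases before to 50 bases after the start in RefSeq (GRCh38.p14), were searched on both strands for TTTNNCGC, a short form of the site of E2F, the factor that drives S-phase genes. It was found in 17 of the 26 windows at hand (65.4%), against 1884 of 27305 windows of all genes (6.90%). Of the 19 replication genes with a window that rose, 13 held it (68.4%), and so did 4 of the 7 that were not called higher (57.1%). The windows of MCM2, GINS2 and MCM3 are printed because these helicase genes rose and each holds the letters, shown in capitals on the strand of the gene. A match describes the letters and not a bound site.
MCM2, plus strand, chr3:127598161-127598460: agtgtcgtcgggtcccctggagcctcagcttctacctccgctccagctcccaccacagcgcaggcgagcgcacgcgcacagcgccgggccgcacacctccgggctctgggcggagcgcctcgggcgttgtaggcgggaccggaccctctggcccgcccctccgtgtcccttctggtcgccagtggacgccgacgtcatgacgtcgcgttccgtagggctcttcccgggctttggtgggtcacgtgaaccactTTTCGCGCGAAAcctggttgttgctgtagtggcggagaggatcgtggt
GINS2, minus strand, chr16:85688905-85689204: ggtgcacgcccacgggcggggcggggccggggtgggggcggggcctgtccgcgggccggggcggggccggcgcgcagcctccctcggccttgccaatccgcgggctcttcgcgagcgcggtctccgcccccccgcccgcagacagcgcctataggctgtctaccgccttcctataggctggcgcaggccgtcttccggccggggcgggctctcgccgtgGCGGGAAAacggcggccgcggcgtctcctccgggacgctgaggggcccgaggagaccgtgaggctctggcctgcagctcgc
MCM3, minus strand, chr6:52284693-52284992: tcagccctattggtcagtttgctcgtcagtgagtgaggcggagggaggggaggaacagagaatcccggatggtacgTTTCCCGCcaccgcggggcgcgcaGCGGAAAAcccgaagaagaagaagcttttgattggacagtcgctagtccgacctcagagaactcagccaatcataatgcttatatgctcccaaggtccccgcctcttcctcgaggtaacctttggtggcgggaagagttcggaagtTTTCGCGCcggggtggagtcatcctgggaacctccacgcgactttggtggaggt
In the MCM2 window 2 overlapping matches lie just after the start. MCM3, added after its values were seen, had 86.2, 74.3 and 111 CPM in shTRIM22 sham, against 53.6, 58.5 and 55.5 CPM in shControl sham (0.70 ± 0.13, adjusted p = 0.000394).

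Cyclin and repair genes leaned the same way, and mitotic genes less. Of 24 cyclins, cyclin-dependent kinases and RB-E2F regulators, 13 rose and 3 fell (median 0.30). CCND1, the cyclin D1 gene that drives RB phosphorylation in G1, had 339, 322 and 396 CPM in shTRIM22 sham, against 198, 208 and 183 CPM in shControl sham. It was 1.79-fold higher with no overlap, and 10.3% of its exon bases are shared with LTO1 on the opposite strand. CCNE1, the cyclin of the G1/S transition, stood at 24.9, 23.6 and 24.6 CPM in shTRIM22 sham, against 10.8, 11.4 and 12.1 CPM in shControl sham. CCND2, another D-type cyclin, was low in both populations, with 1.52, 1.95 and 0.762 CPM in shTRIM22 sham, against 0, 0 and 0.281 CPM in shControl sham. At these levels it could pass the filter on low counts only through the knockdown. E2F1 itself rose with a log2 fold change of 0.80 ± 0.13 (named after its value was seen), and MYBL2, a mitotic gene activator, with one of 0.97 ± 0.15. Of 19 genes of homologous recombination and the Fanconi pathway, 11 rose and 0 fell (median 0.53). FANCD2, the Fanconi protein that is ubiquitinated at blocked forks, had 34.8, 31.6 and 42.0 CPM in shTRIM22 sham, against 18.2, 18.4 and 17.0 CPM in shControl sham. FANCB, of the Fanconi core complex, and FANCI, the partner of FANCD2, rose with log2 fold changes of 1.62 ± 0.24 and 0.85 ± 0.11, and FANCM, which recruits that complex, with one of 0.94 ± 0.14.

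Of 30 mitotic genes, 9 rose and 1 fell (median 0.18), a share of calls below that of all genes. BIRC5, the survivin gene, had 35.6, 34.1 and 60.5 CPM in shTRIM22 sham, against 25.1, 25.9 and 21.3 CPM in shControl sham, and replicate 3 was far above the other knockdown libraries. Its log2 fold change was 0.85 ± 0.21 with all libraries and 0.54 without that one. ANLN, a scaffold of the cleavage furrow, and CDC20, which starts anaphase, rose with log2 fold changes of 0.61 ± 0.15 and 0.58 ± 0.16. MKI67, the proliferation marker, had 93.0, 98.4 and 76.9 CPM in shTRIM22 sham, against 110.1, 111 and 84.4 CPM in shControl sham, so the groups overlapped (adjusted p = 0.311). Among 13 genes of the nuclear lamina and of chromatin, 6 rose and 0 fell, and 6 rose and 1 fell without shTRIM22 sham replicate 3. The share called was 46.15%, against 47.5% of all genes. Rises of at least 2-fold numbered 2 with all libraries and 0 without replicate 3. UHRF1, which maintains DNA methylation, had 44.5, 45.3 and 50.5 CPM in shTRIM22 sham, against 23.1, 22.4 and 22.7 CPM in shControl sham. The lamin genes LMNB2 and LMNB1 rose with log2 fold changes of 1.11 ± 0.10 and 0.67 ± 0.17. LMNA rose with a log2 fold change of 0.41 ± 0.13, which was 0.17 without replicate 3, and its call was lost in 4 of 14 alternatives. RB1 had a log2 fold change of 0.28 ± 0.10 with overlapping groups, and its call was lost in 5 of 14.

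Apoptosis genes moved both ways. Of the BCL2 family and the caspases, 27 genes were tested, with 10 higher and 6 lower (median 0.01). PMAIP1, the pro-apoptotic NOXA, had 79.4, 68.0 and 98.2 CPM in shTRIM22 sham, against 33.0, 29.6 and 31.9 CPM in shControl sham. BIK, another BH3-only killer gene, rose with a log2 fold change of 1.37 ± 0.25. The survival gene MCL1 fell to 220.3, 204 and 262 CPM in shTRIM22 sham, against 380.5, 373 and 376 CPM in shControl sham (named after its value was seen). CASP1, the inflammatory caspase, fell at a low level, with 0.163, 0.243 and 0.176 CPM in shTRIM22 sham, against 1.13, 0.501 and 0.675 CPM in shControl sham.

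Immediate early genes, which encode transcription factors made soon after growth factor or stress signals, held some of the deepest falls. Of 24 immediate early and MYC-network genes, 6 rose and 10 fell, of which 6 at least 2-fold. EGR1 had 99.9, 115 and 43.9 CPM in shTRIM22 sham, against 969.5, 949 and 756 CPM in shControl sham, and replicate 3 was the lowest library. Its log2 fold change was -3.37 ± 0.31 (adjusted p = 2.48e-05) and -3.05 without that library. FOSB, an AP-1 subunit, had 62.0, 70.8 and 56.5 CPM in shTRIM22 sham, against 424, 419 and 367 CPM in shControl sham. FOS had 158, 160.4 and 153 CPM in shTRIM22 sham, against 869, 819 and 829 CPM in shControl sham, far below the control libraries in all knockdown libraries (-2.42 ± 0.06, adjusted p = 2.46e-13). EGR2 and EGR3 fell at low levels, with log2 fold changes of -3.23 ± 0.37 and -3.70 ± 0.56. JUNB and JUN fell less, with log2 fold changes of -1.09 ± 0.07 and -0.72 ± 0.07, and KLF2 rose with one of 0.87 ± 0.08. FOS, JUNB, JUN and KLF2 were named after their values were seen, and 14.2% of the exon bases of JUNB are shared with HOOK2 on the opposite strand. MYC had 87.2, 92.8 and 71.8 CPM in shTRIM22 sham, against 110.5, 102 and 91.3 CPM in shControl sham, with overlapping groups and a call (adjusted p = 0.0205) that was lost in 3 of 14 alternatives.

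The promoter window of EGR1 is printed because this gene fell deeply from a high level and its start is known for serum response elements. It holds the CArG box, the letters bound by serum response factor, searched on both strands, at 2 places, shown in capitals.
EGR1, plus strand, chr5:138465229-138465528: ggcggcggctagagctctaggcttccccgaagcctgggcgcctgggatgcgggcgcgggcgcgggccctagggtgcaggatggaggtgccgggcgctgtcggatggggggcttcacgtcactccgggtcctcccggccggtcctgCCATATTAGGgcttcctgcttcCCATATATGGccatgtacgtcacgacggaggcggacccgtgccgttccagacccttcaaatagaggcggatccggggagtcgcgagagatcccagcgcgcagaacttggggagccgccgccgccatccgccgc
Of the 20 windows of this group at hand, 1 held a CArG box (5.00%), against 351 of 27305 windows of all genes (1.29%).

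Among ERK feedback and EGF receptor family genes, 4 rose and 9 fell of 25 tested. EGFR, the receptor itself, had 232, 236 and 183 CPM in shTRIM22 sham, against 357, 349 and 349 CPM in shControl sham (-0.69 ± 0.08, adjusted p = 1.75e-06). ERBB3, its kinase-poor partner, had 23.2, 26.6 and 24.4 CPM in shTRIM22 sham, against 45.1, 48.1 and 49.1 CPM in shControl sham. The ERK phosphatase genes split. DUSP6 fell to 34.9, 36.7 and 29.6 CPM in shTRIM22 sham, against 76.0, 75.3 and 62.3 CPM in shControl sham. DUSP5 rose to 379, 402 and 347 CPM in shTRIM22 sham, against 172, 165 and 150.5 CPM in shControl sham. Of the exon bases of DUSP6, 40.5% are shared with an opposite-strand transcript that averaged 1.33 CPM. ERRFI1, a feedback inhibitor of EGFR, had a log2 fold change of -0.90 ± 0.12.

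**Figure D3:**
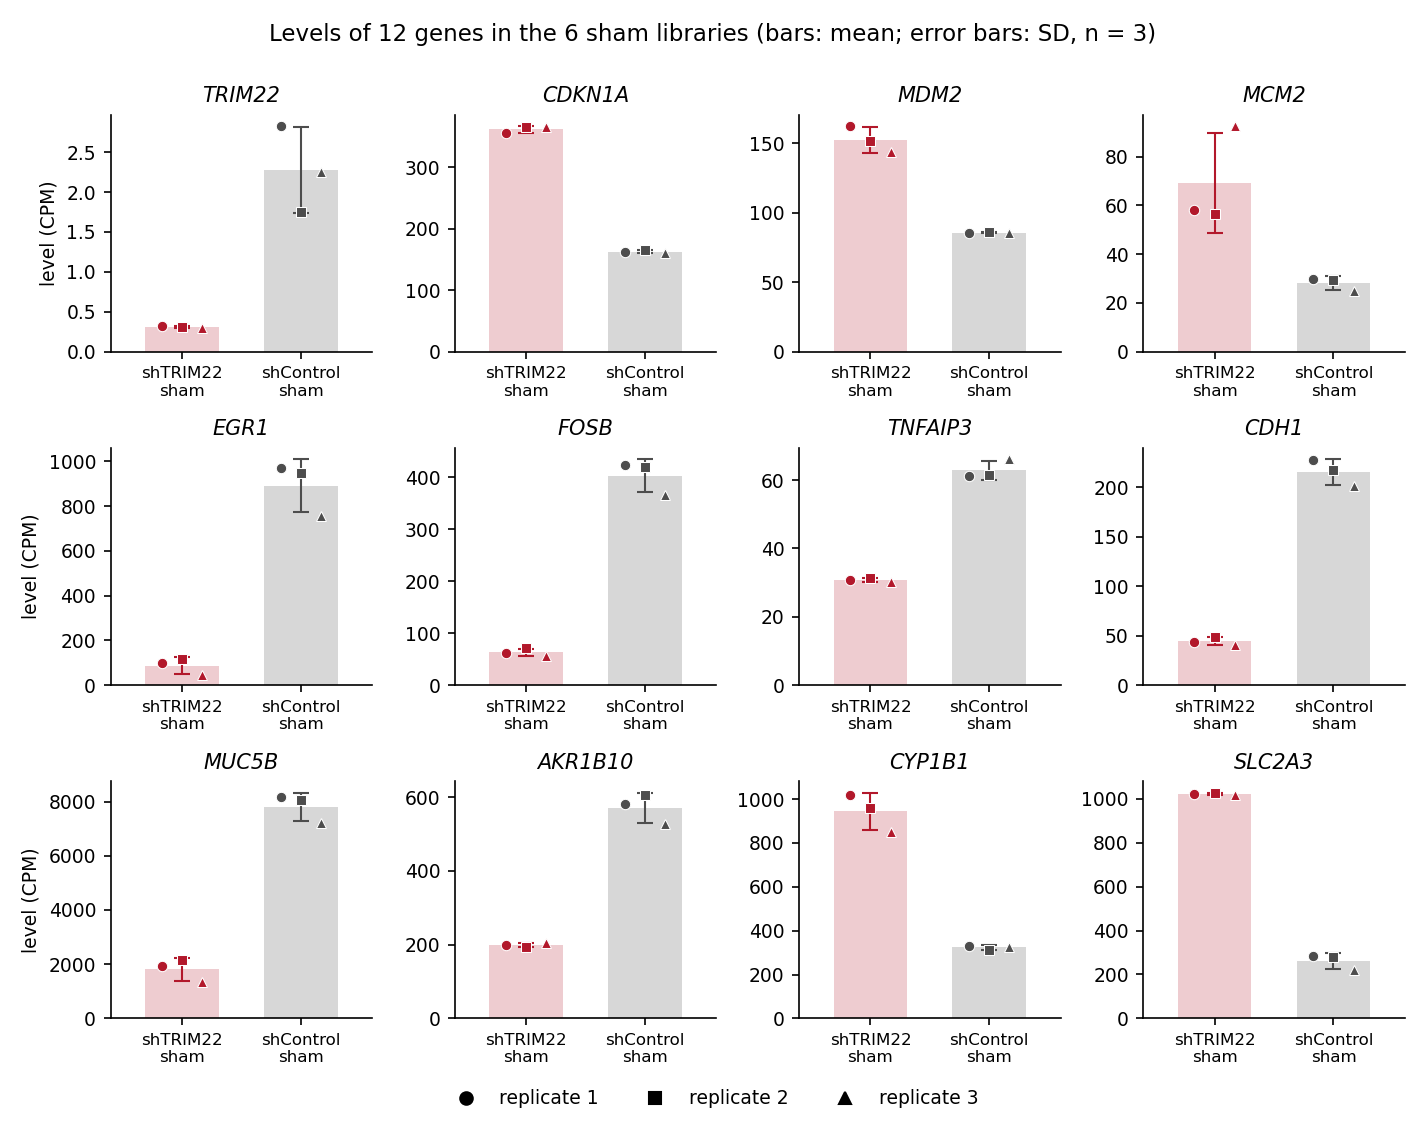
Levels in CPM of 12 genes in the 3 shTRIM22 sham libraries (red, left) and the 3 shControl sham libraries (grey, right); bars are means, error bars SD, and each symbol is 1 library, with replicate 3 as the triangle. In each of the panels the groups do not overlap, and in MCM2 and EGR1 replicate 3 lies apart from the other knockdown libraries.

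NF-kB targets leaned towards lower levels. Of 28 subunits and targets tested, 4 rose and 13 fell (median -0.18), and 5 rose and 16 fell without shTRIM22 sham replicate 3. TNFAIP3, the A20 feedback inhibitor, had 30.7, 31.3 and 30.1 CPM in shTRIM22 sham, against 61.1, 61.4 and 66.1 CPM in shControl sham (-1.03 ± 0.07, adjusted p = 2.92e-09). The libraries of each group were close to each other. CCL2, the monocyte chemokine, had 9.24, 12.5 and 5.10 CPM in shTRIM22 sham, against 28.0, 22.9 and 23.8 CPM in shControl sham. CXCL8, the neutrophil chemokine, had 123, 106 and 98.2 CPM in shTRIM22 sham, against 219, 215 and 187 CPM in shControl sham. REL, a subunit, fell with a log2 fold change of -0.95 ± 0.16, while RELA, the main activating subunit, had a log2 fold change of -0.18 ± 0.10 (adjusted p = 0.149).

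Interferon-stimulated genes showed no common direction. Of 32 tested, 10 rose and 8 fell, with a median of -0.06, and the share called was 56.3% against 47.5% of all genes. IRF7, the interferon regulatory factor, and IFI27 rose at low levels, with log2 fold changes of 0.92 ± 0.22 and 1.48 ± 0.26. ISG20, an exonuclease, had 9.68, 9.67 and 12.8 CPM in shTRIM22 sham, against 21.1, 20.9 and 18.5 CPM in shControl sham. RSAD2, the antiviral viperin, had 0.544, 0.0608 and 0.469 CPM in shTRIM22 sham, against 1.13, 1.32 and 0.506 CPM in shControl sham, with overlapping groups and a call that was lost in 4 of 11 alternatives that could test it. Of 20 genes of MHC class I presentation, 8 rose and 3 fell. CALR, a chaperone of that pathway, had 585, 587 and 723 CPM in shTRIM22 sham, against 336, 354 and 339 CPM in shControl sham. HLA-F, a class I gene whose close paralogs can share reads with it, rose with a log2 fold change of 1.08 ± 0.25. TAPBPL, a peptide editor of that pathway, and PSME1, a proteasome activator subunit, fell with log2 fold changes of -0.82 ± 0.19 and -0.58 ± 0.08, and 10.6% of the exon bases of TAPBPL are shared with VAMP1 on the opposite strand.

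A549 cells are known for constitutive NRF2 activity, and targets of NRF2 were lower in the knockdown with exceptions. Of 30 regulators and targets tested, 7 rose and 17 fell (median -0.27), 6 of them at least 2-fold. NFE2L2, the NRF2 gene, and KEAP1, its inhibitor, were not called, with log2 fold changes of -0.10 ± 0.09 and 0.08 ± 0.07. ABCC3, an efflux pump, had 399, 418 and 418 CPM in shTRIM22 sham, against 1236, 1221 and 1315 CPM in shControl sham. AKR1B10, an aldo-keto reductase, had 199.8, 193 and 204 CPM in shTRIM22 sham, against 580.3, 607 and 526 CPM in shControl sham. Both were about level within a group and far apart between groups. SLC7A11, the cystine importer, had 259, 251 and 222 CPM in shTRIM22 sham, against 653, 646 and 584 CPM in shControl sham. AKR1C2 and AKR1C1, steroid reductases, fell with log2 fold changes of -1.55 ± 0.06 and -1.05 ± 0.09, where near-identical paralogs can share reads. GCLC, of glutathione synthesis, fell with a log2 fold change of -0.86 ± 0.06. The classic targets NQO1, a quinone reductase, and HMOX1, which breaks down haem, rose with log2 fold changes of 0.26 ± 0.06 and 0.56 ± 0.09. GCLC, NQO1 and HMOX1 were named after their values were seen. The letters TGACNNNGC of the antioxidant response element were in 4 of 20 windows of this group (20.0%), against 3702 of 27305 windows of all genes (13.6%).

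Of 23 aldehyde dehydrogenases and xenobiotic enzymes, 9 rose and 11 fell. The rises included CYP1A1 and CYP1B1, known as targets of AHR, the aryl hydrocarbon receptor. AHR targets as a set were not tested, and ALDH3A1, below, which AHR can also induce, fell. CYP1A1, which oxidises polycyclic hydrocarbons, had 5.65, 4.38 and 3.28 CPM in shTRIM22 sham, against 0.189, 0.0627 and 0.113 CPM in shControl sham (5.11 ± 0.50, adjusted p = 3.68e-07). CYP1B1 had 1020, 961 and 850.4 CPM in shTRIM22 sham, against 332, 313 and 325 CPM in shControl sham, and 11.3% of its exon bases are shared with an antisense gene. AHR, its repressor AHRR and TIPARP, which opposes the receptor, were named after their values were seen and rose with log2 fold changes of 0.39 ± 0.08, 0.57 ± 0.16 and 0.41 ± 0.14, and the groups of TIPARP overlapped, with a call that was lost in 4 of 14 alternatives. The falls were led by ALDH3A1, with 90.3, 90.8 and 103 CPM in shTRIM22 sham, against 364, 370.4 and 345 CPM in shControl sham. CYP24A1, which inactivates vitamin D, had 1679, 1691 and 1741 CPM in shTRIM22 sham, against 3810, 3778 and 3782 CPM in shControl sham.

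Of the 18 mucin, S100 and filaggrin genes tested, 3 rose and 5 fell, a share of calls (44.4%) below that of all genes (47.5%). Without shTRIM22 sham replicate 3, 6 rose and 6 fell. MUC5AC, a gel-forming airway mucin, had 32.7, 31.0 and 20.2 CPM in shTRIM22 sham, against 262, 252 and 224 CPM in shControl sham. MUC5B, its partner in airway mucus, had 1920, 2148 and 1352 CPM in shTRIM22 sham, against 8172, 8040 and 7193 CPM in shControl sham. In both, replicate 3 was the lowest library and the others were also far below the control libraries. AGR2 and SPDEF, which are on no list, were among the 10 largest falls. AGR2, a disulphide isomerase needed for mucin folding, had 17.6, 17.8 and 11.1 CPM in shTRIM22 sham, against 116, 116 and 109 CPM in shControl sham. SPDEF, the transcription factor of goblet cells, had 5.92, 4.13 and 5.10 CPM in shTRIM22 sham, against 32.8, 34.0 and 27.1 CPM in shControl sham. These were called with adjusted p of 2.14e-07, 7.8e-08, 3.73e-10 and 2.4e-10. MUC2, the intestinal mucin, was low in both populations and fell too, with 0.0544, 0.304 and 0.351 CPM in shTRIM22 sham, against 1.82, 1.38 and 1.35 CPM in shControl sham. FLG, the filaggrin of keratinised epithelium, rose to 5.65, 5.71 and 9.96 CPM in shTRIM22 sham, against 0.755, 1.44 and 1.52 CPM in shControl sham.

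Adhesion and matrix genes were mixed as groups, with large changes in single members. CDH1, the E-cadherin of epithelial junctions, had 44.0, 48.6 and 40.7 CPM in shTRIM22 sham, against 227, 218 and 201 CPM in shControl sham (-2.28 ± 0.07, adjusted p = 1.17e-12). CLDN2, a pore-forming claudin, had 30.4, 30.6 and 28.7 CPM in shTRIM22 sham, against 112, 103 and 95.0 CPM in shControl sham. CDH3, the P-cadherin, fell at a low level with a log2 fold change of -2.44 ± 0.59. Of 20 epithelial genes, 7 rose and 6 fell, and CLDN7, another claudin, rose with a log2 fold change of 2.41 ± 0.36. FN1, the fibronectin gene, is a mesenchymal marker and fell as well, to 105, 108 and 82.0 CPM in shTRIM22 sham, against 546, 551 and 514 CPM in shControl sham. VIM, the vimentin gene, had 259.6, 249 and 229 CPM in shTRIM22 sham, against 252, 242 and 222 CPM in shControl sham, with overlapping groups (adjusted p = 0.618). Of 21 mesenchymal genes, 4 rose and 3 fell, a share of calls (33.3%) below that of all genes (47.5%). Without shTRIM22 sham replicate 3, 5 rose and 5 fell. The rises included SPARC, a matrix glycoprotein, at 2.17, 2.13 and 3.22 CPM in shTRIM22 sham, against 0.252, 0.376 and 0.169 CPM in shControl sham. LOX, the collagen crosslinker lysyl oxidase, fell with a log2 fold change of -2.15 ± 0.37. ACTA2, the smooth muscle actin, rose with a log2 fold change of 1.11 ± 0.12 and shares 12.8% of its exon bases with FAS, which rose too.

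Of 29 integrin, laminin and collagen genes, 11 rose and 9 fell, and 11 rose and 15 fell without shTRIM22 sham replicate 3. COL4A1, of basement membrane collagen, had 40.9, 37.0 and 72.7 CPM in shTRIM22 sham, against 141, 134 and 143 CPM in shControl sham, with replicate 3 the highest of the knockdown libraries. COL6A1, of collagen VI, fell with a log2 fold change of -1.34 ± 0.19. LAMA1, a laminin chain, rose at a low level, with 1.63, 2.13 and 2.64 CPM in shTRIM22 sham, against 0.126, 0.251 and 0.169 CPM in shControl sham. LAMA4, another laminin chain, rose at a still lower level with a log2 fold change of 1.94 ± 0.76 (adjusted p = 0.0447), a call lost with the replicate block (adjusted p = 0.0526) and in 6 of 11 alternatives in all. Of 30 TGF-beta and activin genes, 9 rose and 9 fell. TGFB1, the ligand, had 62.6, 68.1 and 43.8 CPM in shTRIM22 sham, against 186, 187 and 166 CPM in shControl sham. TGFBR1, its type I receptor, had 36.6, 34.3 and 37.4 CPM in shTRIM22 sham, against 92.1, 91.5 and 93.1 CPM in shControl sham. FST, the activin inhibitor follistatin, had 0.707, 0.669 and 1.23 CPM in shTRIM22 sham, against 3.02, 4.51 and 4.28 CPM in shControl sham. TGFBI, a matrix protein named for its induction by TGF-beta, was called lower too, with 812, 832 and 704 CPM in shTRIM22 sham, against 2046, 2085 and 2068 CPM in shControl sham. Of 20 YAP and TEAD targets, 10 rose and 8 fell, with AXL, a receptor kinase, lower (log2 fold change -1.48 ± 0.07) and ANKRD1, a muscle ankyrin repeat protein, higher (1.77 ± 0.26). WWTR1, which encodes the YAP paralog TAZ, fell to 105, 105 and 100.4 CPM in shTRIM22 sham, against 217, 220.4 and 208 CPM in shControl sham. Of 19 senescence-secreted proteases and growth factors, 5 rose and 7 fell, and 3 of 20 rose and 7 fell without shTRIM22 sham replicate 3. HGF, the hepatocyte growth factor, fell at a low level with a log2 fold change of -2.98 ± 0.50. TIMP3, an inhibitor of metalloproteinases, rose at a low level with overlapping groups, with a log2 fold change of 1.75 ± 0.53 and of 1.22 without replicate 3. TIMP2, of the same family, had 382, 355 and 432 CPM in shTRIM22 sham, against 126, 130.1 and 119 CPM in shControl sham.

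Genes of plasma proteins, which A549 cells make in part, were mostly lower. Of 21 acute-phase and plasma protein genes tested, 4 rose and 13 fell, 10 of these at least 2-fold, with a median log2 fold change of -0.63 (-0.85 without shTRIM22 sham replicate 3). APOH, a phospholipid-binding apolipoprotein, had 0.0544, 0.122 and 0 CPM in shTRIM22 sham, against 5.97, 6.71 and 6.02 CPM in shControl sham. These levels rest on 3 counts in shTRIM22 sham and 309 in shControl sham, 108-fold lower with a 95% exact binomial interval of 36.5 to 525 for counting error only. FGB, the fibrinogen beta chain, had 122, 122 and 115 CPM in shTRIM22 sham, against 346, 344 and 339 CPM in shControl sham. The serum amyloid genes went the other way. SAA1 had 16.7, 16.9 and 21.5 CPM in shTRIM22 sham, against 2.26, 1.69 and 1.74 CPM in shControl sham, and its near-identical neighbour SAA2, which can share reads with it, had 8.91, 7.11 and 8.32 CPM in shTRIM22 sham, against 0.629, 0.690 and 0.957 CPM in shControl sham. AHSG, the fetuin A gene, fell at a low level with a log2 fold change of -2.64 ± 0.65. Transferrin (TF), alpha-1-microglobulin (AMBP) and SERPINA1 fell at low levels, with log2 fold changes of -2.15 ± 0.54, -2.08 ± 0.36 and -1.44 ± 0.30. The other rises of the list were SERPINA5 and LCN2, with log2 fold changes of 2.1 and 0.9. FGB, TF, AMBP, SERPINA1, SERPINA5 and LCN2 were named after their values were seen.

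Of 18 endoderm transcription factor genes, some of which drive plasma protein genes in liver, 2 rose, 8 fell and 8 were not called. HNF4A, CEBPA and CEBPB were not called, with log2 fold changes of -0.27, 0.17 and 0.05, and CEBPD rose with one of 0.43. These members were named after their values were seen, and a link to the plasma protein genes was not tested. FOXA2 had 3.91, 4.74 and 3.87 CPM in shTRIM22 sham, against 17.9, 15.4 and 17.6 CPM in shControl sham. SOX9 and SOX2 fell with log2 fold changes of -0.83 ± 0.11 and -0.98 ± 0.29. The groups of FOXA2 did not overlap.

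In metabolism, genes of sterol synthesis were mostly higher. Of 26 sterol and fatty acid synthesis genes, 19 rose and 4 fell (median 0.40). MSMO1, a sterol oxidase, had 194, 173 and 161 CPM in shTRIM22 sham, against 77.9, 74.7 and 78.3 CPM in shControl sham. It was called with no overlap. CYP51A1, a sterol demethylase, had 23.6, 20.7 and 44.6 CPM in shTRIM22 sham, against 15.2, 16.6 and 16.5 CPM in shControl sham, and its log2 fold change was 0.88 ± 0.23 with and 0.47 without replicate 3. The sterol response letters TCACNCCAC were in 1 of 19 windows of this group, that of SREBF2 (5.26%), against 313 of 27305 windows of all genes (1.15%).

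Of 23 ATF4 and serine synthesis genes, 13 rose and 2 fell (median 0.42). SHMT2, the mitochondrial serine hydroxymethyltransferase, was the deepest fall, with 24.0, 27.2 and 25.4 CPM in shTRIM22 sham, against 123, 129.5 and 122 CPM in shControl sham. PHGDH and PSAT1, which make serine in the cytosol, rose with log2 fold changes of 1.04 ± 0.13 and 0.83 ± 0.08 and were named after their values were seen. CHAC1, a glutathione-degrading target of ATF4, had 44.4, 45.2 and 35.3 CPM in shTRIM22 sham, against 20.4, 20.7 and 16.9 CPM in shControl sham. STC2, a secreted glycoprotein, rose with a log2 fold change of 1.10 ± 0.10, and SESN3, a sestrin, fell with one of -1.66 ± 0.17. Of 18 ER folding genes, 7 rose and 3 fell. HSPA5, the BiP chaperone, had 1240, 1114 and 1614 CPM in shTRIM22 sham, against 767, 776 and 751 CPM in shControl sham, highest in replicate 3. ERN1, the IRE1 sensor of the unfolded protein response, fell to 48.9, 43.4 and 40.2 CPM in shTRIM22 sham, against 82.7, 83.6 and 80.1 CPM in shControl sham.

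Hypoxia and glycolysis genes showed 5 rises and 11 falls of 26, and 5 and 15 without shTRIM22 sham replicate 3. CA9, a carbonic anhydrase induced in hypoxia, had 0 counts in each shTRIM22 sham library, against 8.93, 8.53 and 7.76 CPM in shControl sham, from 416 counts. It was at least 48.4-fold lower, taking 3 counts per library as the floor, and 38.5% of its exon bases are shared with ARHGEF39 on the opposite strand. CA12, a related enzyme, had 361, 376 and 253 CPM in shTRIM22 sham, against 995, 1023 and 978 CPM in shControl sham. SLC2A3, the GLUT3 transporter, had 1022, 1029 and 1018 CPM in shTRIM22 sham, against 284, 279 and 221 CPM in shControl sham, nearly alike within the knockdown. SLC2A1, the GLUT1 gene, had 643, 700.4 and 574 CPM in shTRIM22 sham, against 326, 329.5 and 289 CPM in shControl sham (named after its value was seen). HK2, a hexokinase, rose at a low level with a log2 fold change of 1.55 ± 0.31.

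Among 28 genes of autophagy and lysosomes, 15 rose and 5 fell. SQSTM1, the p62 cargo receptor, had 1224, 1137 and 1782 CPM in shTRIM22 sham, against 849.5, 855 and 833 CPM in shControl sham, highest in replicate 3, and 20.7% of its exon bases are shared with MRNIP on the opposite strand. TFEB, a regulator of lysosome genes, fell with a log2 fold change of -1.62 ± 0.19. Of 28 cytosolic ribosomal protein genes, 12 rose and 4 fell (median 0.16). RPS19 had 1870, 1745 and 2845 CPM in shTRIM22 sham, against 1060, 1189 and 1252 CPM in shControl sham, and processed copies in the genome can share its reads. Of 28 nuclear genes of the respiratory chain, 3 rose and 8 fell, a share of calls (39.3%) below that of all genes (47.5%). Without replicate 3, 2 rose and 17 fell. ATP5F1B, of the ATP synthase, had 780.5, 767 and 779 CPM in shTRIM22 sham, against 1092, 1073 and 1031 CPM in shControl sham. Of the 13 mitochondrially encoded genes 0 passed the edgeR test with all libraries, at a median of -0.86, with 0 at an unadjusted p below 0.05 and 1 lower by DESeq2. Without replicate 3 the median was -0.38 and 4 fell. MT-CO1, a cytochrome oxidase subunit, had 24210, 28150 and 7230 CPM in shTRIM22 sham, against 33780, 32690 and 29270 CPM in shControl sham.

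Zinc-finger genes of the KRAB family on chromosome 19, which silence transposable elements, were low in A549. Of 27 listed genes 7 passed the filter on low counts, and 6 of these rose in the knockdown. ZNF91 had 1.25, 1.40 and 1.05 CPM in shTRIM22 sham, against 0.126, 0 and 0 CPM in shControl sham. That is 64 counts in shTRIM22 sham and 2 in shControl sham, 30.6-fold higher with a 95% exact binomial interval of 8.13 to 258.0 for counting error only. ZNF714 had 8.37, 9.85 and 6.09 CPM in shTRIM22 sham, against 3.46, 3.51 and 2.98 CPM in shControl sham. A gene silent in the control could pass the filter only through the knockdown, so the count over the genes that passed is no support for a common direction. ZNF43 and ZNF675 rose with log2 fold changes of 1.77 ± 0.37 and 1.57 ± 0.22, and these genes share similar zinc-finger repeats.

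Among protein-coding genes with a mean of at least 5 CPM, the largest rise was in PAG1, a membrane adaptor that recruits the kinase CSK, which had 18.0, 18.2 and 14.5 CPM in shTRIM22 sham, against 1.01, 0.690 and 1.07 CPM in shControl sham. SLC6A12, a transporter of betaine and GABA, had 17.0, 19.8 and 14.4 CPM in shTRIM22 sham, against 0.817, 1.32 and 1.35 CPM in shControl sham. Both were near silent in the control libraries and clearly expressed in each knockdown library. CPA4, a carboxypeptidase, had 94.4, 90.7 and 116 CPM in shTRIM22 sham, against 9.94, 8.53 and 9.62 CPM in shControl sham. DMBT1, a mucin-like scavenger protein, REEP1, an ER-shaping protein, and MFAP5, a microfibril protein, rose with log2 fold changes of 3.47 ± 0.22, 3.37 ± 0.14 and 3.19 ± 0.12. MSLN, the mesothelin surface protein, had 19.7, 21.0 and 31.9 CPM in shTRIM22 sham, against 3.58, 2.76 and 2.25 CPM in shControl sham, highest in replicate 3. SH3TC2 and CRYBG2 rose with log2 fold changes of 3.06 ± 0.23 and 2.66 ± 0.20, and SAA1, above, was the remaining gene of the 10.

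The 10 largest falls by the same rule held EGR1, MUC5AC, AGR2, FOSB and SPDEF, given above, and genes of channels and secretion among the rest. KCNJ6, a potassium channel, had 1.79, 1.70 and 1.17 CPM in shTRIM22 sham, against 13.9, 12.8 and 10.8 CPM in shControl sham. CACNA1D, a voltage-gated calcium channel, had 5.71, 5.53 and 3.98 CPM in shTRIM22 sham, against 32.1, 32.7 and 35.5 CPM in shControl sham. SYT13, a synaptotagmin, had 5.92, 7.29 and 6.21 CPM in shTRIM22 sham, against 40.9, 41.4 and 38.8 CPM in shControl sham. The groups of each stood far apart. SLC23A1, a vitamin C transporter, and CST1, a salivary cystatin, fell with log2 fold changes of -2.78 ± 0.23 and -2.80 ± 0.21. Of genes that do not code for protein, the largest falls were in POM121L9P (-3.73 ± 0.29), AC087623.1 (-2.98 ± 0.27) and AF127577.4 (-2.79 ± 0.16). AC087623.1 shares 29.2% of its exon bases with FGFR1 on the opposite strand. The largest rises were in AC007785.1 (2.19 ± 0.24), AC092117.1 (2.12 ± 0.26) and MIR3648-1, whose value of 2.41 ± 0.53 was 1.49 without replicate 3.

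Markers were used to check the label of the cells. Of 11 genes known for A549, KRT8, KRT18, KRT7, AKR1C1, AKR1B10, ALDH1A1, CPS1 and SLC7A11 were expressed in all 6 libraries. CDKN2A and CDKN2B, deleted in A549, had 0 counts in all 6. MTAP, the remaining gene, averaged 0.312 CPM in shTRIM22 sham and 0.234 CPM in shControl sham and was not tested. Of the 8 tested, 2 rose and 5 fell, 3 of these at least 2-fold. ALDH1A1 had 4132, 3964 and 4870 CPM in shTRIM22 sham, against 5748, 5896 and 5779 CPM in shControl sham. Alveolar and airway genes were nearly absent apart from ABCA3, with 1 lower of 5 tested (1 higher and 2 lower without shTRIM22 sham replicate 3) and SCGB1A1, SCGB3A2 and HOPX at 0 in all 6 libraries. Markers of other cells summed to few CPM. The 6 fibroblast markers summed to 9.02 to 17.5 CPM in shTRIM22 sham, against 6.48 to 8.95 CPM in shControl sham, and of the 3 tested 1 was called, COL3A1, at 1.96, 3.77 and 6.97 CPM in shTRIM22 sham, against 0.377, 0.251 and 0.0563 CPM in shControl sham. With the replicate block 2 of the 3 were called, LUM in addition, and without shTRIM22 sham replicate 3, 2 of 5 tested were higher and 1 lower. The 5 endothelial markers summed to 4.84 to 4.92 CPM in shTRIM22 sham, against 3.90 to 4.39 CPM in shControl sham. Of the 2 tested, CDH5, a cadherin of endothelium, was called higher. It had 1.58, 1.46 and 1.70 CPM in shTRIM22 sham, against 0.126, 0.0627 and 0.113 CPM in shControl sham. A marker nearly silent in the control could pass the filter only through the knockdown. The calls of COL3A1 and CDH5 are therefore no support for a common direction of their lists. The 6 blood cell markers summed to 10.8 to 17.0 CPM in shTRIM22 sham, against 19.5 to 19.9 CPM in shControl sham, nearly all of it CD14, with CD3E at 0 in all 6. The 7 kidney and cervix line markers summed to 12.99 to 14.9 CPM in shTRIM22 sham, against 26.9 to 28.0 CPM in shControl sham, with SIM2 the most abundant. Of the 5 tested, 3 were called lower, PAX2, CDH6 and SIM2, each at least 2-fold (median of the 5 -1.03). The part of such cells in the gene groups above was not tested.

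Most of the knockdown differences had the same sign in the irradiated cells, which carry the same hairpin labels in other libraries. Of the 1997 genes called and at least 2-fold changed in sham cells, 1909 (95.6%) had the same sign in the irradiated libraries and 1326 (66.4%) were called there with that sign. Of the 1997, 0 were called there by edgeR with the opposite sign, 1 at an unadjusted p below 0.05 and 1 by DESeq2. The effect was smaller after irradiation for 1702 of them (85.2%), where the genes had been picked by their size in sham cells. Of all 8116 called genes, 7583 (93.4%) had the same sign and 22 were called with the opposite one, MDM2 among them. The test of the difference called 105 of the 1997. Among named genes for which the difference between states was not called are CDH1 (-1.98 after irradiation), SLC2A3 (2.01), MUC5B (-2.06), SHMT2 (-2.24) and CYP1B1 (1.41).

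**Figure D4:**
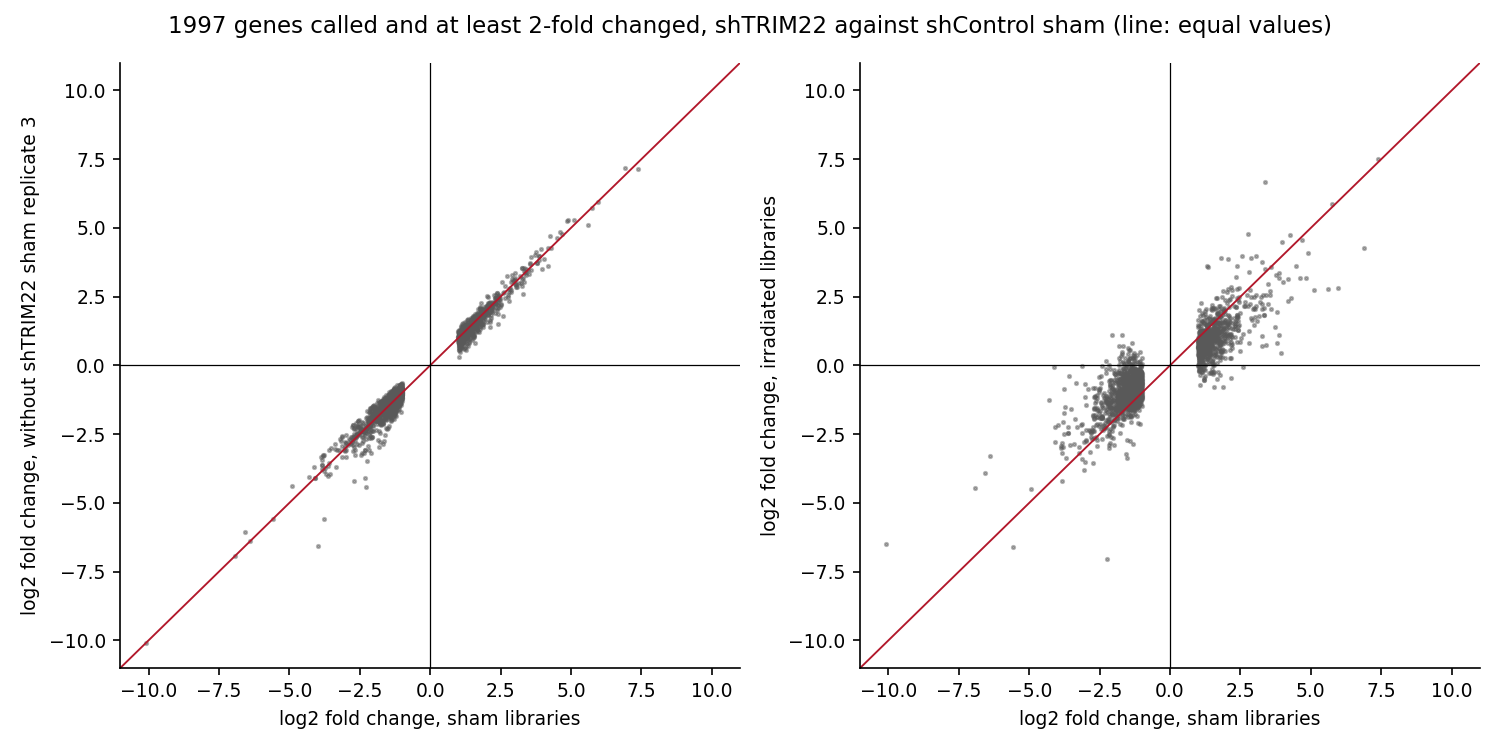
Each point is 1 of the 1997 genes called and at least 2-fold changed between shTRIM22 sham and shControl sham, with the log2 fold change over all sham libraries on the x axis. The y axis is the value without shTRIM22 sham replicate 3 (left) or that of shTRIM22 against shControl in the irradiated libraries (right), and the red line marks equal values. Points follow the line on the left, and on the right 95.6% keep their sign with most values closer to 0.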

How the data were processed

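RNA sequencing of poly(A) RNA was measured in 12 libraries of A549 cells, and the 6 sham libraries were compared. The values are whole-number counts per gene that the authors deposited in a table of 58735 genes, and per the submitters' processing notes the build was hg38 and DESeq2 1.20.0 was used. No aligner, counter or strand setting is stated in the labels, so exons shared by overlapping genes are named beside some of the values. Shares of exon bases not named there include AF127577.4 (26.2% with LINC02246), XPC (23.8% with AC093495.1) and TRIM16 (23.5% with AC005324.3). Others are NFE2L2 (17.6% with AC019080.1), KRT18 (16.3% with KRT8) and VIM (12.4% with VIM-AS1). TGFB1 shares 6.64% with HNRNPUL1, which averaged 389 CPM. Gene IDs carry GENCODE names in the table, and 0 columns of per-sample values were left unmapped. Totals per library give the precision of low genes, and intervals cover counting error only, since PCR reads are not independent molecules.

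From the counts, edgeR 4.0.16 (R 4.3.3) fitted 1 mean per group to all 12 libraries, with filterByExpr at a minimum count of 10, TMM factors and the robust quasi-likelihood F-test. Benjamini-Hochberg adjustment ran over all 17094 genes kept, two-sided, and a gene is called at an adjusted p below 0.05. Each standard error is the absolute log2 fold change divided by the square root of the F statistic (n = 3 a group). It rests on the spread estimated over all 12 libraries and shared across genes. The common biological coefficient of variation was 9.7% in that fit and 12.5% in the fit to the 6 compared libraries alone. The fit was tested on simulated data, and no result given here rests on that test. Alternatives were DESeq2 1.42.0, RLE factors, TMM without mitochondrially encoded genes, other filters, a test against 1.5-fold, a fit to the 6 libraries alone, each sham library left out, and the replicate number as a block. The same-numbered libraries of both populations deviated together (r = 0.156, 0.133 and 0.244 over 11370 genes). Replicates 1 and 2 did so nearly as much across numbers (r = 0.107 and 0.0958), so a pairing of these is not shown. Pairs of replicate 3 with replicate 1 or 2 gave r of -0.228 to -0.142. The number was therefore used as a block in an alternative only, and values are from the fit without it unless the block is named.

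Members and lists were chosen with earlier results of these data known. Named genes are a fixed set, all members of lists of 13 or fewer genes, up to 4 members of each other list with the largest change called with and without shTRIM22 sham replicate 3, and the 10 largest rises and falls of protein-coding genes (mean of at least 5 CPM) and 3 of others (2 CPM) whose groups did not overlap. Other genes are said to be named after their values were seen. Promoter windows came from RefSeq (GRCh38.p14). A few genes of the lists and the always named set are not reported here.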

Additional observations from a re-analysis of the deposited data

Results flagged for a closer look

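For 31 of the genes named above, the log2 effect of knockdown in sham cells minus that after irradiation passed the edgeR test at an adjusted p below 0.05, in the same 12-library model. The control libraries differ between the effects, and all 4 groups share 1 estimate of the spread.

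Among p53 targets, the difference of the log2 effects was 1.05 for CDKN1A (1.16 in sham and 0.10 in irradiated cells), 1.22 for MDM2 (0.84 and -0.38), 1.12 for SESN1, 1.18 for ZMAT3, 1.06 for PHLDA3, 1.08 for AEN, 1.12 for FAS and 0.49 for BAX. Each of these p53 targets had the higher log2 fold change in sham cells, where the genes had been picked by a called difference. In irradiated cells MDM2 (-0.38) and FAS (-0.01) were not above the control.

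Of replication and repair genes, TYMS had a difference of 0.72, FANCD2 one of 1.18 (1.02 in sham and -0.16 in irradiated cells) and PCNA one of 0.57 (0.08 and -0.49). Of transcription factor genes and their feedback, FOSB had -0.88, FOS -0.55, DUSP6 -0.70, JUN 0.44 and KLF2 0.77. JUN was lower in the knockdown by a log2 fold change of -0.72 in sham and -1.16 in irradiated cells, the opposite order from FOS.

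Of plasma protein genes, SAA1 differed by 2.20 (3.27 in sham and 1.07 in irradiated cells), SAA2 by 2.65 and APOH by -2.66, where APOH rests on 3 counts in shTRIM22 sham. Matrix, adhesion and filament genes differed by 0.88 (MFAP5), 1.47 (MSLN), -0.48 (TGFBI), -0.60 (FN1), 1.26 (ACTA2, 1.11 in sham and -0.15 in irradiated cells), 0.64 (TIMP2), 1.66 (FLG), 0.59 (KRT18) and 0.50 (KRT8). The remaining differences were -0.33 for ABCC3, 0.90 for RPS19 and -2.22 for the pseudogene POM121L9P. Of the 31 genes, 15 were highest in replicate 3 among the shTRIM22 sham libraries. Without that library all 31 differences had the same sign and 30 were called, with APOH the exception at a difference of -2.14 (edgeR adjusted p = 0.051), where 1185 of 17500 genes (6.77%) were called.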

How the results depend on the processing

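The count of 8116 genes called for knockdown in sham cells kept within 1.5 times of itself under each alternative but 1. Against a threshold of 1.5-fold in place of a zero change, 1834 genes were called. With each library left out in turn the count ran from 7047 to 8692, and with DESeq2 it was 7757. With the replicate block, the number in the labels as a term, it was 8110, with 7932 of the 8116 called with the same sign. The block changed the calls of LAMA4 and LUM and the fibroblast marker count, given above, and no other named call. Several other list counts moved slightly. With the block 11 NF-kB genes fell in place of 13, 14 ribosomal protein genes rose in place of 12, and 7 autophagy and lysosome genes fell in place of 5. In a fit to the 6 compared libraries alone 6541 genes were called. With TMM factors from nuclear genes the split was 4126 higher and 3992 lower, and the median of all genes moved by under 0.1 on the log2 scale. The 1997 genes changed at least 2-fold ran from 1397 to 2212 over the alternatives.

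The count of 276 genes whose knockdown effect differed between sham and irradiated cells depended on the processing. It was 754 with no filter on low counts and 597 with DESeq2. With each sham library left out it ran from 111 (without shControl sham replicate 2) to 1185 (without shTRIM22 sham replicate 3), with 122 and 138 without shControl sham replicates 1 and 3, 212 without shTRIM22 sham replicate 1 and 915 without shTRIM22 sham replicate 2. The cause was not tested. No result changed its direction from called to called the other way. Of values for single genes, 3362 kept their side of the threshold, 91 lost it and 20 gained it. Of list counts 1036 were within 1.5 times and 56 moved, and of list medians 475 and 70. Depth limits genes such as TRIM22, CASP1 and APOH, whose levels rest on few counts.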
